A study of Saccharomyces cerevisiae with 68 samples.

Results

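The loss of the SAGA core subunit Spt7 was compared with the combined loss of the complex's 2 enzymes, Ubp8 and Gcn5, in total RNA of budding yeast. The members are the 4 arrays titled as SPT7 total RNA and the 4 titled as UBP8_GCN5 total RNA, 8 of the 68 arrays of the series, chosen by their titles. The spt7 strain lacks SPT7 and the ubp8_gcn5 strain lacks UBP8 and GCN5. Both derive, like the wild type (WT), from the parental strain FY406, and no further allele or deletion marker is given in the labels. All cultures (100 mL, YPD medium, 30 °C, OD600 of 0.8) were labelled for 6 min with 5 mM 4-thiouracil, and received wild-type S. pombe cells as a spike, in a ratio of 3 to 1, ahead of the extraction. Total RNA, which is the RNA present at harvest whether labelled or not, was hybridised to 1-colour Affymetrix arrays that carry probes for both species. The labels state 2 independent replicates for each deletion strain while 4 arrays were deposited, so p-values over arrays measure a spread that may in part be technical. WT is represented by 6 arrays. The fit that gives the standard errors and adjusted p-values between the strains takes its spread from 32 total RNA arrays. These also cover the spt20, spt3, spt8, gcn5 and ubp8 strains and the spt3_gcn5 double deletion, each named for the genes it lacks. Changes in spt3, spt8, gcn5, ubp8 and spt20 strains are also described where they share no array with the comparison.

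SAGA is a coactivator that is recruited by transcription factors to gene promoters, where it acts on chromatin and helps to deliver the TATA-binding protein (TBP). Its separate modules hold the Gcn5 histone acetyltransferase, the Ubp8 deubiquitinase that acts on histone H2B, the TBP-contacting subunits Spt3 and Spt8, and the activator-binding protein Tra1. Spt7 is a scaffold subunit needed for the assembly of the complex. Deleting UBP8 and GCN5 removes both catalytic activities but leaves genes for the scaffold and for the TBP-contacting subunits in place. The difference between the strains was taken as a comparison of losing the scaffold gene SPT7 with losing the enzyme genes UBP8 and GCN5. Whether Gcn5 or Ubp8 also acts outside SAGA was not tested. The loss in ubp8_gcn5 therefore need not be a part of the loss in spt7.

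The deleted genes matched the strain labels in every array. SPT7 lay between -7.11 and -5.22 in the 4 spt7 arrays, between -0.18 and -0.02 in the ubp8_gcn5 arrays and between -0.30 and -0.04 in WT, all as log2 signal relative to the array median of S. cerevisiae genes. UBP8 lay between -5.66 and -5.21 in the ubp8_gcn5 arrays and between -1.24 and -1.10 in the spt7 arrays. GCN5 lay between -5.95 and -4.90 in ubp8_gcn5 and between -0.66 and -0.42 in spt7. Of the genes next to the deleted ones, FSH2 beside UBP8 was higher in spt7 than in ubp8_gcn5 (1.13 ± 0.0945, log2 difference ± standard error, adjusted p = 7.05e-10). Against WT, FSH2 was at -1.26 in ubp8_gcn5, at -1.02 in the ubp8 strain and at -0.46 in the gcn5 strain, which keeps UBP8, and all 3 values passed the threshold. MRE11, on the other side of UBP8, differed by 0.60 ± 0.21 (adjusted p = 0.0386, in the fit without the signal filter). SEC18 and UBC4 beside SPT7 and NOP19 and PUP2 beside GCN5 did not pass the test.

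The arrays of a strain were alike. Pearson's r over 4086 genes was 0.991 to 0.996 within spt7, 0.990 to 0.994 within ubp8_gcn5 and 0.927 to 0.937 between the strains, with a median standard deviation (SD) over 4 arrays of 0.0844 and 0.0873 on the log2 scale. S. pombe RNA served as a control, since the same cells were added to all samples. Of 1305 S. pombe genes 0 (0%) passed the test between the spt7 and the ubp8_gcn5 arrays in limma, and 39 had an unadjusted p under 0.05. In limma fits with fewer strains, 204 S. pombe genes (15.6%) passed with the 8 arrays alone and 22 (1.69%) without the spt20 arrays and the second array batch. By their S. pombe profiles, 2 of the WT arrays (replicates 7 and 8) and the spt3_gcn5 arrays fall into that second batch. Both strains of the comparison lie in the batch of the other 4 WT arrays. Where the WT batch moves a change against WT by over 1.5 times or turns its call, the value against the 4 WT arrays of the same batch is given as well.

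Of 4086 genes tested, 964 (23.6%) passed the threshold of an adjusted p of 0.05 between the strains. 467 genes (11.4%) were higher and 497 (12.2%) were lower in spt7 than in ubp8_gcn5. The 4 spt7 arrays did not overlap with the 4 ubp8_gcn5 arrays for 2134 genes (52.2%), and 952 genes (23.3%) met both conditions. The lower genes reached larger differences than the higher ones, as the plot of level and difference shows, and the 95th percentile of the absolute log2 difference was 0.944 for S. cerevisiae genes and 0.296 for S. pombe genes. With values scaled to the S. pombe genes, the median of all genes moved to -0.21, and 149 genes passed, 12 higher and 137 lower in spt7, all 149 of them also called the same way after centring. Without the spt20 arrays and the second batch 2037 genes passed, 969 higher and 1068 lower. When arrays were averaged into 2 pairs a strain, the count was 447, 140 or 415, depending on which arrays were paired. The same averages without the spt20 arrays and the second batch gave 1959, 1837 and 1789. The list counts with averaged arrays given below keep the spt20 arrays and the second batch in the fit.

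**Figure D1:**
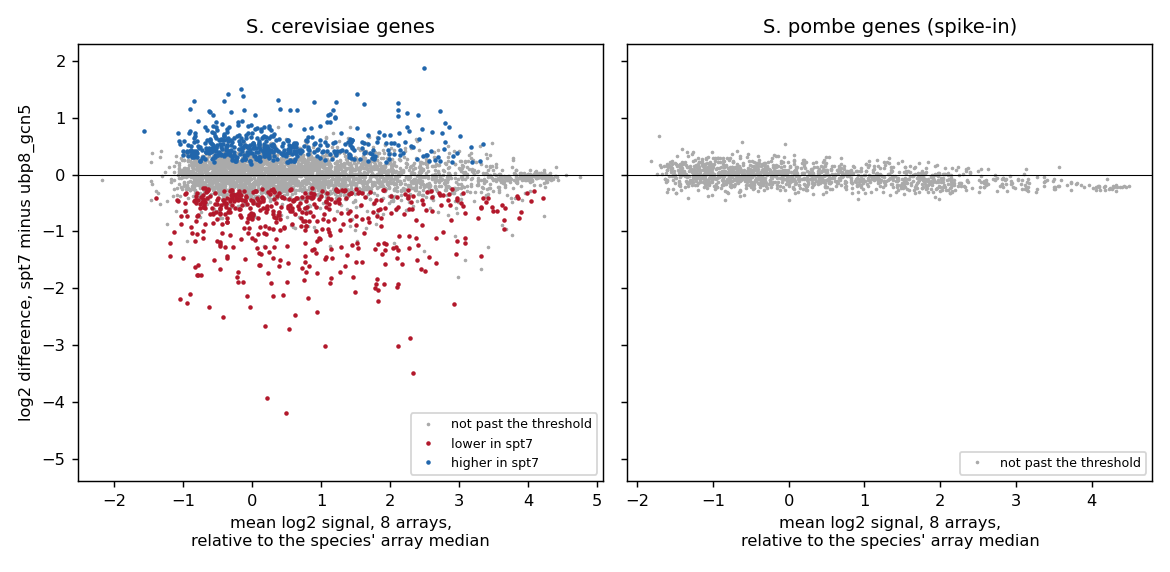
Log2 difference between spt7 and ubp8_gcn5 (vertical axis) against the mean log2 signal over the 8 arrays (horizontal axis), 1 point per gene, for S. cerevisiae genes without SPT7 (left) and for S. pombe spike-in genes (right); coloured points passed the threshold. The S. cerevisiae points reach from -4.19 to 1.88 and no S. pombe gene passed.

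The genes lowest in spt7 after SPT7 itself include several that encode proteins of the cell wall. CWP1, a cell wall mannoprotein, was measured at -1.67, -1.23, -1.71 and -1.80 in the 4 spt7 arrays and at 2.66, 2.44, 2.57 and 2.69 in the ubp8_gcn5 arrays. The ubp8_gcn5 values ended where the same-batch WT range of 2.69 to 2.92 began, and the spt7 arrays were all far below. The difference was -4.19 ± 0.676 (adjusted p = 3.37e-05), which makes CWP1 18.3-fold higher in ubp8_gcn5 than in spt7. Against WT, CWP1 was at -4.63 in spt7 (adjusted p = 1.85e-06) and at -0.43 in ubp8_gcn5 (adjusted p = 0.601; -0.25 in the same batch). EXG1, the major exo-1,3-beta-glucanase of the wall, was at 0.78, 0.35, 0.53 and 0.79 in spt7 and at 3.61, 3.58, 3.68 and 3.64 in ubp8_gcn5, an 8.08-fold lower level in spt7 (-3.02 ± 0.282, adjusted p = 5.8e-09). SVS1 was at -0.25, -0.26, -0.32 and -0.23 in spt7 and at 2.12, 2.14, 2.14 and 2.21 in ubp8_gcn5. Its ubp8_gcn5 arrays lay inside the WT range of 1.43 to 2.37, and the spt7 arrays lay below it (difference -2.42 ± 0.241, adjusted p = 1.65e-08).

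For PCL5, TIR3 and YLL053C, among the leading genes lower in spt7, the 2 strains lay on opposite sides of all 6 WT arrays. Both strains passed the threshold against WT for these genes. PCL5, a cyclin of the Pho85 kinase that takes part in the turnover of the activator Gcn4, was at -0.54, -0.32, -0.38 and -0.55 in spt7 and at 2.49, 2.72, 2.67 and 2.40 in ubp8_gcn5. The WT arrays lay between the strains, from 0.45 to 1.51. PCL5 fell in spt7 (-1.33 against WT, adjusted p = 6.58e-06) and rose in ubp8_gcn5 (1.69, adjusted p = 1.73e-07), and the strains differed by -3.02 ± 0.213 (adjusted p = 2.72e-11). TIR3, a mannoprotein of the TIP1 family, showed the same order, with spt7 arrays from -0.92 to -0.78, WT arrays from 0.11 to 0.74 and ubp8_gcn5 arrays from 1.81 to 1.96 (difference -2.72 ± 0.201, adjusted p = 6.23e-11). YLL053C lay from -1.97 to -1.43 in spt7 and from 0.72 to 0.91 in ubp8_gcn5, with all 6 WT arrays between, from -1.36 to -0.34 (difference -2.51 ± 0.188). DDR2, a gene induced by many stresses, lay from -1.34 to -0.87 in spt7 and from 1.27 to 1.84 in ubp8_gcn5. Its WT arrays were spread over -1.16 to 1.49 and overlapped with both strains (difference -2.66 ± 0.41, adjusted p = 1.93e-05).

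HSP31, a stress-induced chaperone and methylglyoxalase of the DJ-1 family, was at 0.67, 1.16, 1.15 and 0.42 in spt7 and at 3.75, 3.55, 3.79 and 3.83 in ubp8_gcn5. Its level differed between the WT batches, at 2.81 to 3.08 in the same batch and 0.74 to 0.78 in the other. Against the same-batch WT it was at -2.09 in spt7 and 0.78 in ubp8_gcn5, and against all 6 WT arrays at -1.36 and 1.51, each past the threshold. YER053C-A was at -1.78, -1.48, -1.71 and -2.04 in spt7 and at 2.32, 2.04, 2.08 and 2.24 in ubp8_gcn5, a difference of -3.92 ± 0.677 (adjusted p = 7.96e-05). The same-batch WT arrays lay between these groups at 1.13 to 1.55, and the other WT arrays lay below both at -2.47 to -2.41. DDR48, a stress-induced glycoprotein named for its response to DNA damage, was at 0.34, 0.89, 0.87 and 0.21 in spt7 and at 4.02, 4.01, 4.16 and 4.13 in ubp8_gcn5 (difference -3.50 ± 0.373, adjusted p = 5.4e-08). Its WT arrays, from 3.43 to 3.76, lay just below the ubp8_gcn5 arrays. PBI2, an inhibitor of a vacuolar protease, lay from -0.78 to -0.45 in spt7 and from 1.75 to 1.92 in ubp8_gcn5, where the same-batch WT range was 1.44 to 2.17 (difference -2.47 ± 0.378). With replicates 1 and 3, and 2 and 4, averaged, CWP1, YER053C-A, HSP31 and PBI2 no longer passed, while DDR48, PCL5, EXG1, TIR3, DDR2, YLL053C and SVS1 did. With the same averages but without the spt20 arrays and the second batch, all of these genes passed. They also all passed with replicates 1 and 2, and 3 and 4, averaged, and with replicates 1 and 4, and 2 and 3, averaged. On probe sets shared with other transcripts, and so uncertain, YOR072W-B (-1.45), HXT7 (-1.44) and IMA3 (-1.28) were also lower in spt7.

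**Figure D2:**
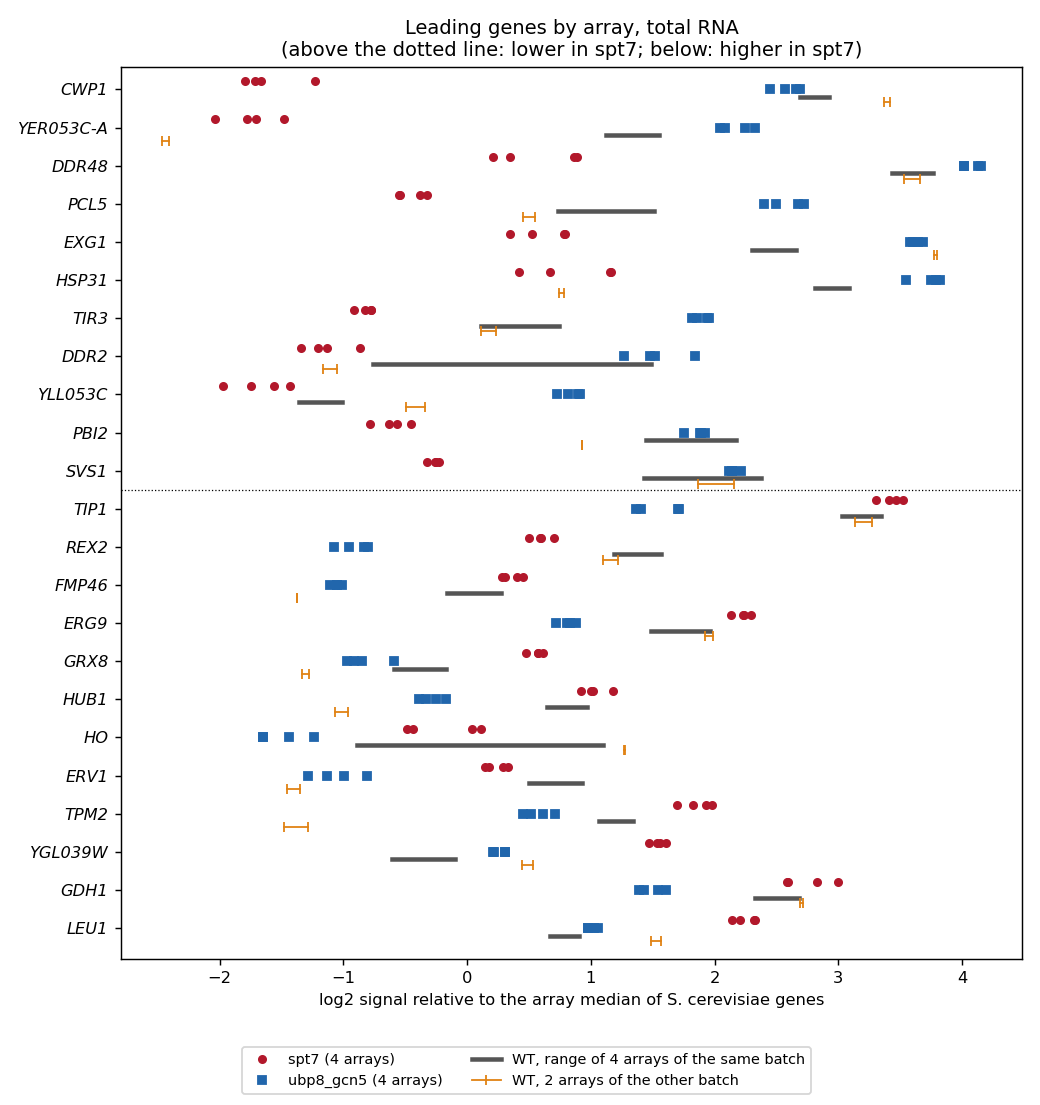
Log2 signal relative to the array median (horizontal axis) of the 23 genes with the largest differences after SPT7, in the 4 spt7 arrays (red circles) and the 4 ubp8_gcn5 arrays (blue squares), with the range of the same-batch WT arrays (grey bars) and of the 2 other WT arrays (orange). By the choice of genes none shows overlap of the 2 strains. WT lies between them for PCL5, TIR3 and YLL053C, among others, but beside ubp8_gcn5 for CWP1 and beside spt7 for TIP1.

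Of the 467 genes higher in spt7, the WT median was nearer to spt7 than to ubp8_gcn5 for 230 (49.3%), a share close to the 46.0% of all genes. TIP1, a cell wall mannoprotein of the same family as TIR3, was at 3.30, 3.47, 3.52 and 3.41 in spt7 and at 1.71, 1.41, 1.36 and 1.70 in ubp8_gcn5. The WT arrays, from 3.03 to 3.34, overlapped with the lowest spt7 array and with none of the ubp8_gcn5 arrays. TIP1 was 3.68-fold higher in spt7 (1.88 ± 0.0952, adjusted p = 4.43e-14), with a fall of -1.65 against WT in ubp8_gcn5. ERG9, the squalene synthase that commits the pathway to sterols, was at 2.14, 2.23, 2.29 and 2.24 in spt7 and at 0.88, 0.83, 0.81 and 0.72 in ubp8_gcn5 (1.41 ± 0.0974, adjusted p = 2.21e-11). It fell in ubp8_gcn5 (-0.99 against WT) and in the gcn5 strain (-0.92), and it rose in spt7 (0.42). GDH1, the NADP-dependent glutamate dehydrogenase of ammonium assimilation, was at 2.59, 2.82, 2.99 and 2.58 in spt7 and at 1.61, 1.54, 1.43 and 1.39 in ubp8_gcn5 (1.26 ± 0.114, adjusted p = 3.35e-09). Its WT arrays, from 2.32 to 2.72, overlapped with the spt7 arrays and with none of the ubp8_gcn5 arrays.

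REX2, an RNA exonuclease, fell in both strains but less in spt7. It was at 0.50, 0.71, 0.59 and 0.60 in spt7, at -0.83, -0.96, -0.80 and -1.07 in ubp8_gcn5 and from 1.10 to 1.57 in WT (difference 1.51 ± 0.117, adjusted p = 1.31e-10). HO, the endonuclease of mating type switching, was at 0.04, -0.43, -0.48 and 0.11 in spt7 and at -1.44, -1.65, -1.65 and -1.24 in ubp8_gcn5, within and below the wide WT range of -0.89 to 1.27 (difference 1.30 ± 0.314, adjusted p = 0.00284). LEU1, an enzyme of leucine synthesis, and YGL039W, an aldehyde reductase, were higher in spt7 than in both other groups. LEU1 lay from 2.14 to 2.32 in spt7, from 0.98 to 1.06 in ubp8_gcn5 and from 0.67 to 1.57 in WT (difference 1.24 ± 0.199). YGL039W lay from 1.47 to 1.61 in spt7, from 0.21 to 0.31 in ubp8_gcn5 and from -0.61 to 0.53 in WT (difference 1.28 ± 0.224). The other leading genes differed strongly between the WT batches, so their values against the 4 same-batch WT arrays are followed by those against all 6. The glutaredoxin gene GRX8 was at 0.89 and 1.21 in spt7, and at -0.51 (adjusted p = 0.0189) and -0.18 (adjusted p = 0.526) in ubp8_gcn5. FMP46, which encodes a mitochondrial protein, was at 0.30 and 0.78 in spt7 and at -1.12 and -0.64 in ubp8_gcn5, all past the threshold. HUB1, a ubiquitin-like modifier, was at 0.20 (adjusted p = 0.196) and 0.81 in spt7, and at -1.12 and -0.50 (adjusted p = 0.175) in ubp8_gcn5. For these genes the choice of WT arrays decided part of the calls. The sulfhydryl oxidase gene ERV1 was at -0.51 and 0.21 (adjusted p = 0.648) in spt7 and at -1.80 and -1.08 in ubp8_gcn5. The minor tropomyosin gene TPM2 was at 0.69 and 1.54 in spt7, and at -0.60 and 0.26 (adjusted p = 0.627) in ubp8_gcn5. ERV1 in spt7 and TPM2 in ubp8_gcn5 thus changed sign with the WT arrays used. FMP46, GRX8, HUB1, HO, ERV1 and TPM2 did not pass between the strains with scaling to S. pombe, and all of these but GRX8 also failed with arrays averaged in pairs, as did YGL039W and LEU1 for the pairs 1 and 3, and 2 and 4. All of them passed with averaged arrays once the spt20 arrays and the second batch were left out. Leaving out 1 array ended the call of TPM2 in 6 of 8 cases. On shared probe sets, YDR316W-B (0.58) and HMRA2 (0.52) were higher in spt7.

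Genes of cell separation were lower in spt7 as a group. These are genes expressed in daughter cells at the end of division, mostly glucanases and chitinases that open the septum between mother and daughter. Of 14 measured genes 13 passed the signal filter, and 12 of them were lower and 0 higher in spt7, against 12.2% of all genes lower; the median difference was -1.47, against a median over all genes near zero. In limma, 12 had an unadjusted p under 0.05. PRY3 was at -1.61, -1.70, -1.70 and -1.47 in spt7 and from -0.00099 to 0.33 in ubp8_gcn5, a difference of -1.76 ± 0.145 (adjusted p = 5.55e-10). EGT2, a cell wall endoglucanase, was at -0.31, -0.05, -0.04 and 0.09 in spt7 and at 1.67, 1.56, 1.57 and 1.73 in ubp8_gcn5 (-1.71 ± 0.171, adjusted p = 1.65e-08). SCW11 (-1.39) and SCW10 (-1.50), both glucanase-like wall proteins, did not overlap between the strains either, as 52.2% of all genes did not. The endochitinase gene CTS1 lay from 0.44 to 0.49 in spt7 and from 2.44 to 2.65 in ubp8_gcn5 (-2.07 ± 0.325). DSE4, AMN1, DSE2, DSE1, DSE3, ASH1 and SUN4 were lower by 0.98 to 1.90, and SCW4 did not pass (-0.18). The median of the list against WT was -1.16 in spt7 and 0.40 in ubp8_gcn5, 2 values that share the WT arrays. In RNA from whole cultures, fewer cells in this stage and less RNA per cell cannot be told apart. The count was 11 with scaling to S. pombe and 9 to 11 with arrays averaged in pairs.

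The mannoprotein list holds 18 genes that passed the filter, 12 lower and 1 higher in spt7, with a median difference of -0.76. Among all genes tested, 12.2% were lower and 11.4% higher. Besides CWP1 and TIR3 the lower genes were PRY1, PST1, YGP1, PIR1, TIR1, TIR2, SED1, CIS3, CWP2 and HSP150, with differences from -1.60 to -0.64. PIR1, a wall protein with internal repeats, was at 1.73, 1.76, 1.76 and 1.89 in spt7, at 3.09, 2.97, 2.98 and 3.08 in ubp8_gcn5 and from 2.40 to 2.80 in WT. Its 3 groups did not overlap, with WT between the strains (difference -1.25 ± 0.0887, adjusted p = 3.16e-11). PRY1 differed by -1.60 ± 0.149 (adjusted p = 5.36e-09). TIP1 was the member that was higher. The list also holds SRP1 (0.24, not passed), whose symbol belongs to importin alpha. Under the S. pombe scaling, 7 members were lower and 1 higher, and with arrays averaged in pairs 5 to 10 lower and 1 higher.

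Stress genes were lower in spt7 in several lists, against 12.2% lower and 11.4% higher among all genes. Of 17 genes of the general stress response and of reserve carbohydrates, 9 were lower and 0 higher (11 with an unadjusted p under 0.05), with a median of -0.90. HSP12, a small membrane-associated stress protein, was at 1.16, 1.15, 1.18 and 1.10 in spt7 and at 3.05, 3.01, 3.12 and 3.12 in ubp8_gcn5, 3.80-fold lower in spt7 (-1.93 ± 0.284, adjusted p = 1.02e-05). HOR7 differed by -1.12 ± 0.136 and was at -1.14 against WT in spt7 (adjusted p = 1.01e-07) and at -0.02 in ubp8_gcn5 (adjusted p = 0.914). TMA10 differed by -1.29 ± 0.23, and here it was ubp8_gcn5 that differed from WT (1.39, adjusted p = 9.69e-06, against 0.10 in spt7, adjusted p = 0.726). The glucose-phosphorylating and trehalose genes GLK1 (-1.84) and TSL1 (-1.89) were lower, and TPS1 (-0.13) and NTH1 (0.0014) did not pass. With scaling to S. pombe 6 of these genes were lower, and 3 or 4 with averaged arrays.

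All 3 genes of the HSP30 family of membrane proteins were lower in spt7, with a median of -1.99. YRO2 was at -1.91, -2.13, -1.94 and -2.31 in spt7, at 0.64, -0.24, -0.11 and 0.49 in ubp8_gcn5 and from 0.71 to 1.15 in WT (-2.27 ± 0.388). HSP30, a stress-induced regulator of the plasma membrane proton pump, was at 1.05, 1.51, 1.36 and 0.50 in spt7 and at 3.34, 2.72, 2.93 and 3.40 in ubp8_gcn5 (-1.99 ± 0.537, adjusted p = 0.00742). MRH1 differed by -1.20 ± 0.296. In ubp8_gcn5, replicates 1 and 4 lay above replicates 2 and 3 for YRO2 and HSP30. Of the 3 genes, 2 passed when values were scaled to S. pombe, and 0 or 2 with averaged arrays. Of 23 chaperone genes 2 were lower and 1 higher, a smaller share than the 23.6% of all genes, with HSP26 (-1.54 ± 0.171) the largest. HSP26, a small heat shock protein, rose in both strains against WT, by 0.51 in spt7 and 2.05 in ubp8_gcn5.

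Of 17 oxidative stress genes, 8 were lower and 0 higher (11 with an unadjusted p under 0.05), with a median of -0.70. Among all genes tested, 12.2% were lower and 11.4% higher. GSH1, which catalyses the opening step of glutathione synthesis, was at 0.66, 1.00, 1.01 and 0.64 in spt7 and at 2.01, 2.09, 2.07 and 2.06 in ubp8_gcn5 (-1.23 ± 0.22, adjusted p = 0.000118). TRR1, the cytosolic thioredoxin reductase, differed by -0.80 ± 0.121 and SOD1, the copper-zinc superoxide dismutase, by -0.42 ± 0.113. TSA2, a peroxiredoxin, was above WT in both strains (1.04 in spt7 and 1.81 in ubp8_gcn5) and lower in spt7 by 0.77. SRX1 (-1.80, adjusted p = 0.0923) and OYE3 (-1.50, adjusted p = 0.291) did not pass, and their lack of overlap between the strains is shared by 52.2% of all genes. Scaled to S. pombe, 0 of these genes passed, and 1 or 2 with averaged arrays. Of 12 drug exporter genes, 5 were lower and 0 higher (6 with an unadjusted p under 0.05), beside the same shares of all genes. TPO1, a polyamine transporter, was at 0.70, 0.92, 0.98 and 0.73 in spt7, at 2.80, 2.63, 2.88 and 2.71 in ubp8_gcn5 and from 1.54 to 2.15 in WT. The 3 groups did not overlap, and the strains differed by -1.93 ± 0.0991 (adjusted p = 4.44e-14). TPO4 (-2.19) and the pleiotropic drug transporters SNQ2 (-1.45), PDR5 (-0.81) and YOR1 (-0.55) were lower as well.

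**Figure D3:**
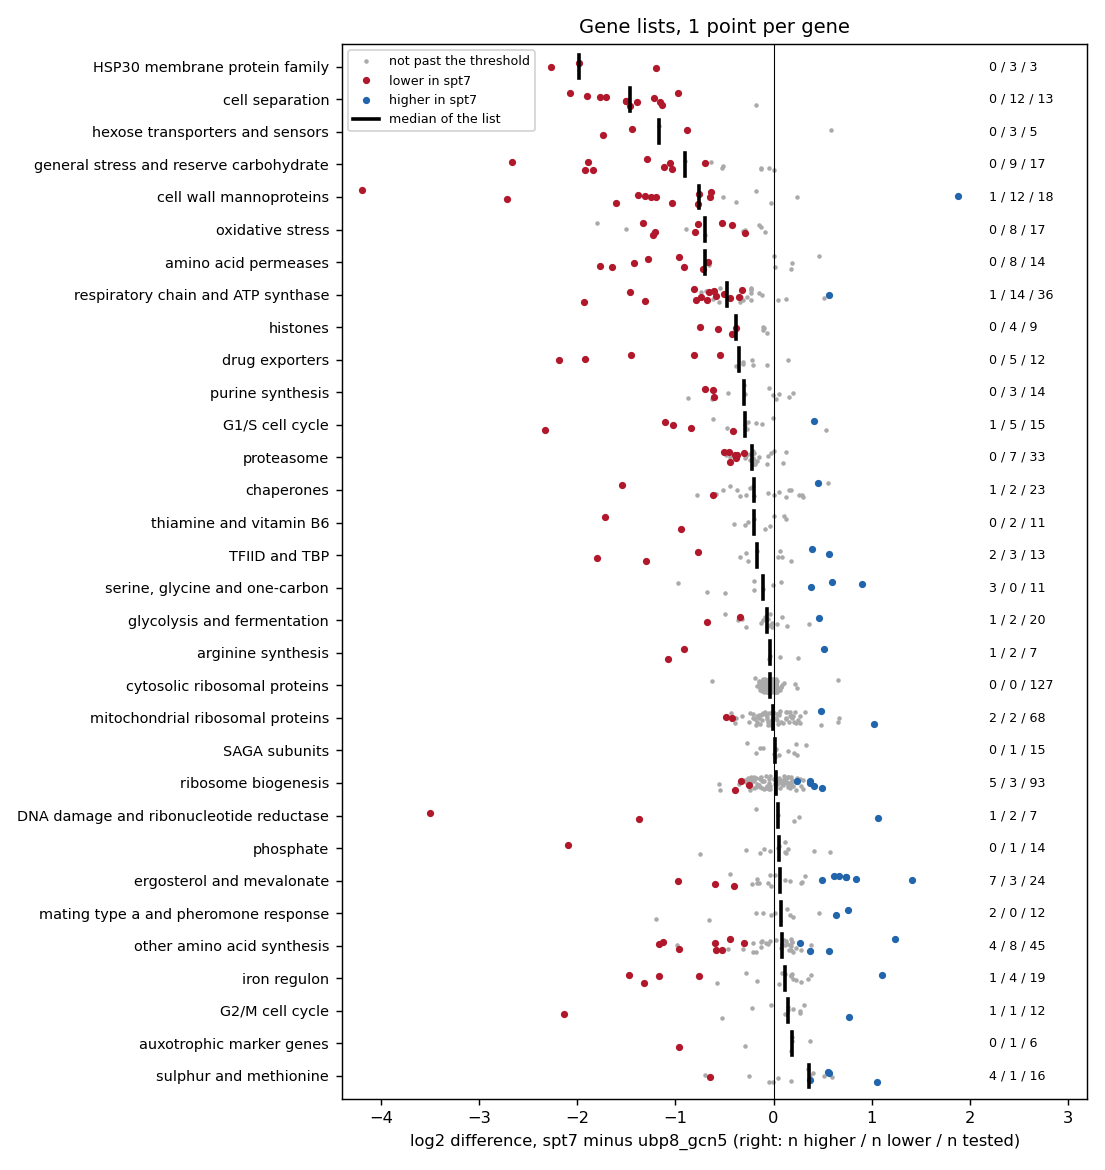
Log2 difference between spt7 and ubp8_gcn5 (horizontal axis) of the genes in each list (rows, 1 point per gene that passed the signal filter; SPT7 is not drawn), with black lines for list medians and, at the right, the numbers higher, lower and tested. Cell separation (median -1.47), HSP30 family (-1.99), oxidative stress (-0.70) and histone genes (-0.38) lie to the left of zero as whole lists. The 127 cytosolic ribosomal protein genes lie around zero.

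Transporter genes of the plasma membrane were lower in spt7 in part, against 12.2% lower and 11.4% higher among all genes. Of 14 amino acid permease genes, 8 were lower and 0 higher (8 with an unadjusted p under 0.05), with a median of -0.69. The branched-chain amino acid permease gene BAP2 was at -0.21, -0.01, -0.07 and -0.12 in spt7, at 1.50, 1.54, 1.61 and 1.51 in ubp8_gcn5 and from 0.89 to 1.20 in WT (-1.64 ± 0.108, adjusted p = 1.1e-11). BAP3 differed by -1.42 ± 0.199. The methionine permease gene MUP1 was lower by 1.28 in spt7 than in ubp8_gcn5, where it rose (1.50 against WT), and was not past the threshold against WT in spt7 (0.22, adjusted p = 0.295). SAM3, TAT1, GNP1, AGP1 and MUP3 were lower by 0.67 to 1.77, and LYP1, TAT2, HIP1, CAN1, DIP5 and MMP1 did not pass. Of 5 hexose transporter genes that passed the filter 3 were lower, among them the low-affinity transporter gene HXT1 at -0.72, -0.51, -0.47 and -0.88 in spt7 and at 0.88, 1.21, 1.21 and 1.08 in ubp8_gcn5 (-1.74 ± 0.358). With scaling to S. pombe 1 of the 3 passed, and 0 or 1 with averaged arrays.

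The iron regulon, the genes that Aft1 activates when iron is scarce, gave 4 lower and 1 higher of 19 genes, a share near the 23.6% of all genes called, with a median of 0.12. FET3, the ferroxidase of high-affinity iron uptake, was at 0.48, 0.50, 0.48 and 0.50 in spt7 and at 1.60, 1.80, 1.94 and 1.89 in ubp8_gcn5, in which it lay with WT (1.47 to 2.03). Its permease partner FTR1 was lower in spt7 by 0.76 with no call against WT there (0.01, adjusted p = 0.955) and a rise in ubp8_gcn5 (0.77, adjusted p = 8.53e-07). The ferric reductase gene FRE1 (-1.17) and the iron-sulphur scaffold gene ISU2 (-1.47) were lower and the vacuolar iron transporter gene SMF3 (1.11) was higher. With averaged arrays 2 or 3 were lower and 0 higher. Genes of the phosphate list, which holds transporters, phosphatases and regulators, mostly did not differ past the threshold. Of 14 genes, the acid phosphatase gene PHO3 alone passed, at -1.96, -1.73, -1.89 and -2.18 in spt7 and at 0.18, 0.10, 0.07 and 0.25 in ubp8_gcn5, both below the WT range of 1.34 to 2.47 (-2.09 ± 0.456). The high-affinity phosphate transporter gene PHO84 lay from -2.45 to -2.09 in spt7 and from -2.39 to -2.02 in ubp8_gcn5, overlapping groups that were both below the WT range of 2.66 to 4.06. The difference was -0.10 ± 0.795, with an error larger than the difference. In WT, PHO84 was higher in the second batch (4.02 to 4.06) than in the other (2.66 to 2.86).

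Genes of amino acid synthesis moved in both directions. Of 45 genes outside the arginine pathway 4 were higher and 8 lower, shares of the list near those of all genes. HIS3, an enzyme of histidine synthesis, was at 3.05, 3.22, 3.15 and 3.26 in spt7, at 4.10, 4.06, 4.22 and 4.15 in ubp8_gcn5 and from 3.38 to 3.92 in WT, which lay between the strains (-0.96 ± 0.0902, adjusted p = 5.95e-09). LYS20, the homocitrate synthase of lysine synthesis, was at 1.99, 2.73, 2.78 and 2.05 in spt7 and from 3.46 to 3.65 in ubp8_gcn5 (-1.17 ± 0.22). LEU4, ASN1, ILV3, ILV5, ARO3 and ARO4 were lower by 0.30 to 1.12, and LEU1, BAT1, LYS9 and THR1 were higher. In the arginine pathway CPA1 (-1.08) and ARG8 (-0.91) were lower and ARG2 (0.51) was higher. ARG1, the argininosuccinate synthase gene, lay from 2.22 to 2.67 in spt7 and from 2.27 to 2.82 in ubp8_gcn5, against -1.34 to -0.86 in WT. It rose in both strains by a like amount (3.58 and 3.62 against the same WT arrays) and differed between them by -0.04 ± 0.338.

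Other pathways of small molecules gave smaller counts, to be read beside 11.4% higher and 12.2% lower among all genes. The called shares of the serine, purine and vitamin lists lay near the 23.6% of all genes. Of 11 serine, glycine and folate genes 3 were higher and 0 lower (4 with an unadjusted p under 0.05): SER3 (0.91), SER2 (0.60) and SHM1 (0.38). Scaled to S. pombe, 0 of them passed, with averaged arrays 0 or 1 were higher, and without spt20 and the second batch 3 were higher and 5 lower. In that last fit 969 of all 4086 genes were higher and 1068 lower. Of 16 sulphur and methionine genes 4 were higher and 1 lower, with a median of 0.36. MET10, a subunit of sulphite reductase, was at 0.54, 0.50, 0.59 and 0.63 in spt7 and at -0.49, -0.49, -0.35 and -0.62 in ubp8_gcn5, 2.08-fold higher in spt7 (1.05 ± 0.144, adjusted p = 3.5e-06). CYS4, the cystathionine beta-synthase, was the lower member (-0.65). Of 14 purine genes 3 were lower and 0 higher (5 with an unadjusted p under 0.05), namely ADE12, IMD3 and ADE1, and with scaling to S. pombe or averaged arrays 0 passed. SNZ1, of vitamin B6 synthesis, was at 0.33, 0.34, 0.56 and 0.45 in spt7, at 2.12, 2.18, 2.23 and 2.02 in ubp8_gcn5 and from -0.99 to -0.67 in WT (-1.72 ± 0.143). It rose in both strains, and the thiamine gene THI4 did too, with 1.41 in spt7 and 2.35 in ubp8_gcn5 against WT. Of 11 genes for these vitamins, SNZ1 and THI4 passed between the strains (5 had an unadjusted p under 0.05), and 4 were lower with quantile normalization and 6 with the 8 arrays alone. Among all 4086 genes, 507 and 1219 were lower in those settings.

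The ergosterol and mevalonate pathway had 7 higher and 3 lower members of 24, against 11.4% and 12.2% of all genes, with a median of 0.06. Besides ERG9, the higher members were MVD1, ERG10, ERG13, ERG20, ERG24 and ERG7, by 0.50 to 0.84. ERG20, the farnesyl pyrophosphate synthase that makes the substrate of Erg9, was at 3.25, 3.39, 3.42 and 3.34 in spt7 and at 2.77, 2.64, 2.64 and 2.67 in ubp8_gcn5 (0.67 ± 0.0846, adjusted p = 9.08e-07). ERG13, the HMG-CoA synthase, differed by 0.74 ± 0.152. ERG5 (-0.97), ERG28 (-0.60) and ERG6 (-0.40) were lower. After scaling to S. pombe, 1 was higher and 1 lower, and with averaged arrays 2 or 3 were higher and 0 or 3 lower.

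Genes of the transcription machinery itself were compared as well, again beside 12.2% lower and 11.4% higher among all genes. Of 15 SAGA subunit genes that passed the filter, only the deleted SPT7 differed past the threshold, and the others ranged from -0.27 (SPT3) to 0.33 (TRA1). Of 13 genes for TFIID subunits and TBP regulators, 3 were lower and 2 higher. BDF1, a bromodomain protein that associates with TFIID, was at 0.58, 0.57, 0.56 and 0.57 in spt7 and at 2.23, 2.26, 2.44 and 2.54 in ubp8_gcn5, 3.48-fold lower in spt7 (-1.80 ± 0.202, adjusted p = 1.34e-07). The WT arrays lay above the spt7 arrays, from 1.71 to 1.90 in the same batch and from 2.79 to 2.81 in the other. NCB2, a subunit of the TBP-binding repressor NC2, was at 0.77, 0.90, 0.94 and 0.92 in spt7, at 2.17, 2.16, 2.18 and 2.22 in ubp8_gcn5 and from 1.91 to 2.53 in WT (-1.30 ± 0.278). MOT1, an ATPase that removes TBP from DNA, differed by -0.77 ± 0.157. TAF2 (0.56) and TAF11 (0.39) were higher. With scaling to S. pombe 1 of the 5 calls was left, a lower one. Of 9 histone genes 4 were lower and 0 higher (4 with an unadjusted p under 0.05), among them HTA1 (-0.42) and the linker histone gene HHO1 (-0.57). The labels do not list the histone or marker alleles of FY406, the parent of spt7, ubp8_gcn5 and WT. Whether the strains differ in these alleles was not analysed here. That limits how the values of the histone genes and of HIS3 can be read. Of the histone genes 0 passed with values scaled to S. pombe, and 0 or 2 with averaged arrays.

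Among genes of the cell cycle, those of the G1/S transition gave 5 lower and 1 higher of 15, against 12.2% and 11.4% of all genes, with a median of -0.30. Scaled to S. pombe, 2 were lower and 0 higher, and with averaged arrays 1 to 4 were lower and 0 higher. PCL1, a G1 cyclin of the Pho85 kinase, was at -1.39, -2.11, -2.38 and -1.26 in spt7 and at 0.59, 0.46, 0.46 and 0.65 in ubp8_gcn5, 5.02-fold lower in spt7 (-2.33 ± 0.249, adjusted p = 5.59e-08). It fell in spt7 (-1.27 against WT) and rose in ubp8_gcn5 (1.06). The cohesin gene MCD1 (-1.11), the G1 cyclin gene CLN2 (-1.02) and YOX1 (-0.84) were lower in spt7 and not past the threshold against WT in ubp8_gcn5. Of 12 G2/M genes, the B-type cyclin gene CLB1 was lower (-2.13 ± 0.331) and the chitin synthase gene CHS2 higher (0.77 ± 0.195). Of 12 a-specific and pheromone response genes, SST2 (0.76) and AGA1 (0.64) were higher and 0 were lower (4 with an unadjusted p under 0.05), while the median against the same WT arrays was -1.41 in spt7 and -1.20 in ubp8_gcn5. SAG1, the alpha-agglutinin gene, was the only alpha-specific gene past the filter (0.61 ± 0.201).

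Of 127 cytosolic ribosomal protein genes 0 passed in limma and 0 had an unadjusted p under 0.05, with a median of -0.04; with quantile normalization 5 were higher and the median was 0.08. Of 93 ribosome biogenesis genes 5 were higher and 3 lower, and of 68 mitochondrial ribosomal protein genes 2 each, with MRPL31 the largest (1.02 ± 0.179). With quantile normalization 10 biogenesis genes were higher and 4 lower, and 8 mitochondrial ribosomal protein genes were higher and 2 lower, while scaled to S. pombe 0 of either list passed. With the 8 arrays alone 17 biogenesis genes were higher and 20 lower, and 15 mitochondrial ribosomal protein genes were higher and 14 lower. Of all 4086 genes, 684 were higher and 507 lower with quantile normalization, and 1141 and 1219 with the 8 arrays alone. Of 20 glycolysis and fermentation genes 1 was higher and 2 were lower. Genes of the respiratory chain and ATP synthase gave 14 lower and 1 higher of 36, against 12.2% lower and 11.4% higher among all genes, with a median of -0.47. CYC1, the main cytochrome c isoform, was at 0.84, 1.10, 0.97 and 0.88 in spt7 and at 2.89, 2.88, 2.85 and 2.90 in ubp8_gcn5 (-1.93 ± 0.415, adjusted p = 0.000982), with WT at 2.39 to 2.59 in the same batch and 0.79 to 0.91 in the other. QCR6 (-1.31), RIP1 (-0.81) and CYT1 (-0.79), all of the cytochrome bc1 complex, were lower, and SDH3 (0.56) was higher. Of 33 proteasome genes 7 were lower and 0 higher (14 with an unadjusted p under 0.05), by 0.30 to 0.51. Under the S. pombe scaling, 2 respiratory genes and 0 proteasome genes passed, and with averaged arrays 1 to 5 respiratory and 0 to 4 proteasome genes were lower. Without spt20 and the second batch 27 respiratory and 25 proteasome genes were lower, and with the 8 arrays alone 30 and 26. These counts stand beside 1068 and 1219 lower genes among all 4086 in the same fits.

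The position of WT differed among the genes that passed. For 267 of the 497 lower genes (53.7%) and 268 of the 467 higher genes (57.4%) the WT median lay between the medians of the strains, as it did for 1106 of all 4086 genes (27.1%). Genes that passed were chosen for a gap between the strains, which by itself raises their share, so the excess over all genes is not a result. It lay above both strains for 132 of the lower and 99 of the higher genes, and below both for 98 and 100. With the 4 same-batch WT arrays it lay between the strains for 272 of the lower and 244 of the higher genes. Against WT, 1832 genes (44.8%) passed in spt7 and 1681 (41.1%) in ubp8_gcn5, 2 counts that share the WT arrays. Scaled to S. pombe, these counts were 1136 and 282.

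Strains that share no array with the comparison were used to see where its genes change elsewhere, with the 50 genes of the largest change each way among those past the threshold. Among all genes tested, 12.2% were lower and 11.4% higher in spt7 than in ubp8_gcn5. In the spt3 strain, which lacks a TBP-contacting subunit, 880 genes (21.5%) passed against WT. Of the 50 genes lowest in spt3, 30 were lower and 0 higher in spt7 than in ubp8_gcn5, with a median of -1.13 (-0.78 for the 25 lowest). EXG1 and TIR3 are among them, at -1.74 and -2.54 against WT in spt3. Of the 50 genes highest in spt3, 10 were higher and 6 lower. In the spt8 strain 478 genes (11.7%) passed. The 50 lowest there gave 5 higher and 13 lower with a median of -0.05 (-0.32 when chosen against the same-batch WT), and the 50 highest gave 3 and 7.

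The strains lacking a single enzyme gave another pattern, again to be read beside 12.2% lower and 11.4% higher among all genes. In gcn5, 1301 genes (31.8%) passed against WT, and of the 50 highest there 1 was higher and 25 were lower in spt7 than in ubp8_gcn5, with a median of -0.92 (-0.59 when chosen against the same-batch WT). Of the 50 lowest in gcn5, which include REX2, HO and GRX8, 14 were higher and 6 lower, with a median of 0.15. In ubp8, 805 genes (19.7%) passed. Of the 50 highest in ubp8, 3 were higher and 21 lower with a median of -0.77, and of the 50 lowest, 4 were higher and 5 lower. Across 4082 genes, without the deleted ones, the difference between spt7 and ubp8_gcn5 had Pearson's r and Spearman's rho of 0.19 and 0.10 with the change in spt3, -0.06 and -0.08 in spt8, -0.32 and -0.30 in gcn5 and -0.26 and -0.23 in ubp8. These are correlations across genes, which are not independent replicates, and the arrays share probes and, but for the second batch, a profile.

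**Figure D4:**
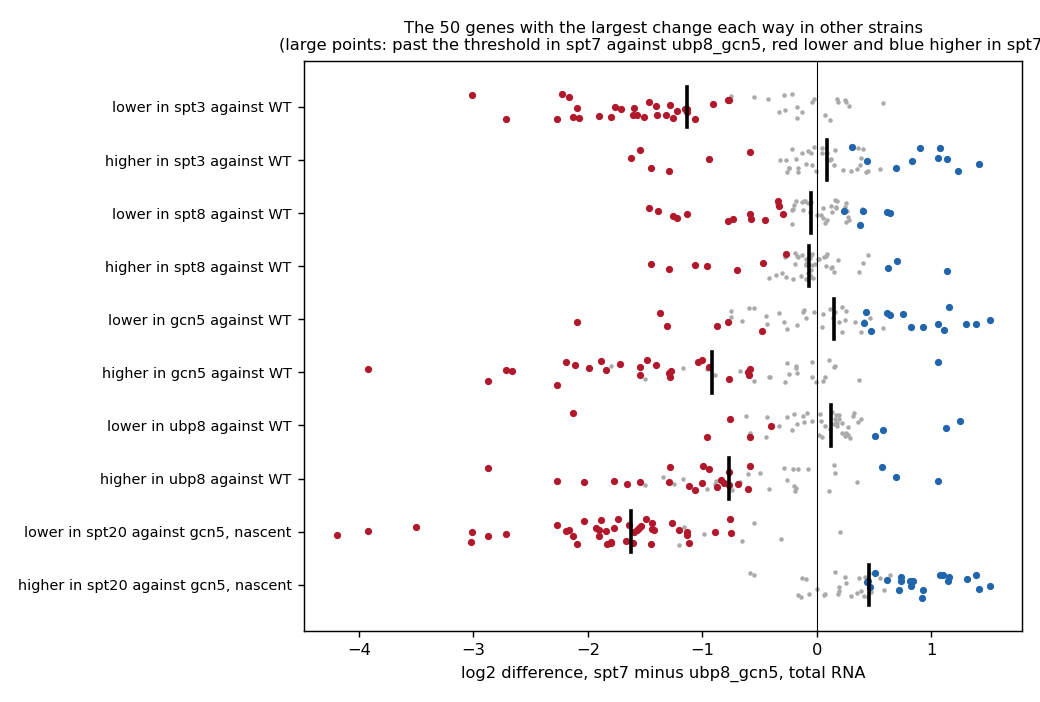
Log2 difference between spt7 and ubp8_gcn5 in total RNA (horizontal axis) for the 50 genes with the largest change each way in arrays of other strains (rows, 1 point per gene; red points were lower and blue points higher past the threshold, black lines are medians). The genes lowest in spt20 against gcn5 in nascent RNA (median -1.62) and in spt3 against WT (-1.13) lie to the left, and the genes highest in gcn5 (-0.92) and in ubp8 (-0.77) do too.

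A similar contrast in the series, of a strain without a core subunit against a strain without an enzyme, exists in newly synthesised RNA, where spt20 was set against gcn5. It uses another RNA fraction, other strains and other arrays. There, 1182 genes (28.9%) passed. Of the 50 genes lowest in spt20 against gcn5, 43 were lower and 0 higher in spt7 than in ubp8_gcn5, with a median of -1.62, and of the 50 highest 21 were higher and 0 lower, with a median of 0.46. Among all genes tested, 12.2% were lower and 11.4% higher. CWP1 was at -3.22 in nascent RNA (adjusted p = 3.14e-15), and PCL5 (-2.10), DDR48 (-2.49), EXG1 (-1.85) and HSP31 (-2.40) were low there as well. REX2 (1.39), FMP46 (2.21) and GRX8 (2.08), which belong to the 50 highest there, and TIP1 (1.11) and ERG9 (1.19) passed in the other direction. YLL053C went the other way, at 0.68 in nascent RNA (adjusted p = 0.0238), and DDR2 did not pass there (-0.78, adjusted p = 0.259). Across 4012 genes the differences had r = 0.57 and rho = 0.46, again as a description across genes. The spt7 arrays of nascent RNA were not used for genes, because their S. cerevisiae values were unrelated to the total RNA values of spt7 (rho of 0.0162 to 0.0186, against 0.989 to 0.995 for S. pombe genes).

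**Figure D5:**
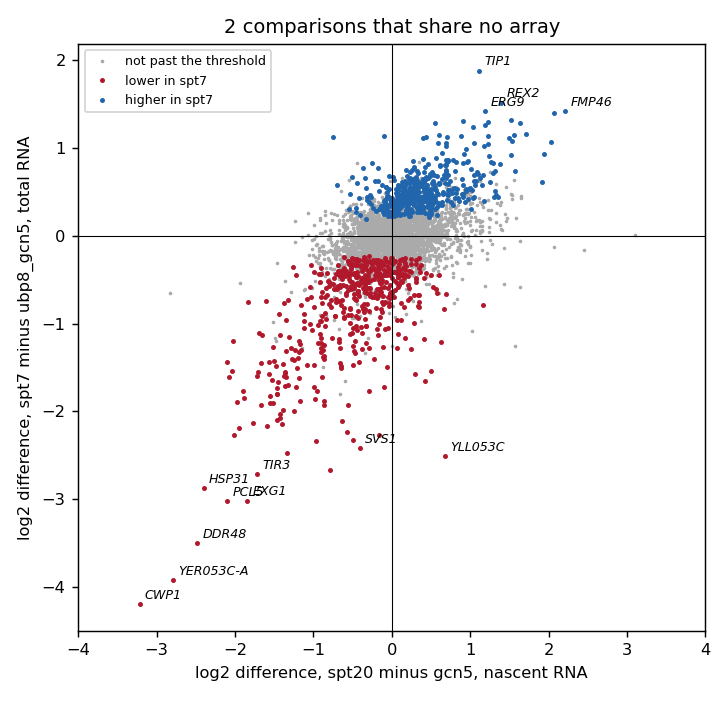
Log2 difference between spt7 and ubp8_gcn5 in total RNA (vertical axis) against that between spt20 and gcn5 in nascent RNA (horizontal axis), 1 point per gene measured in both, coloured where the vertical difference passed the threshold; SPT7 is not drawn and SPT20 lies outside the axis. CWP1 lies at the lower left, TIP1, REX2, FMP46 and ERG9 at the upper right, and YLL053C at the lower right.

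All values above are relative to the median S. cerevisiae gene, and the S. pombe cells give the level of that median. The median log2 signal of S. cerevisiae over S. pombe genes was 0.583, 0.590, 0.566 and 0.716 in the spt7 arrays and 1.10, 0.852, 0.549 and 0.997 in the ubp8_gcn5 arrays. The groups overlapped, since ubp8_gcn5 replicate 3 lay below every spt7 array. The means were 0.614 ± 0.069 in spt7 and 0.874 ± 0.239 in ubp8_gcn5 (SD, n = 4), a difference of -0.261, which makes the median S. cerevisiae signal in spt7 83.5% of that in ubp8_gcn5. The difference did not pass a two-sided exact permutation test (p = 0.143, where the smallest p for 4 against 4 arrays is 0.0286). In WT the ratio was 1.15 ± 0.432 (SD, n = 6), from 0.631 and 0.662 in the second batch to 1.66. A change of all transcripts at once was thus not detectable between the strains with these arrays, and the spread of the ubp8_gcn5 arrays limits what could be seen.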

How the data were processed

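The deposited values are 1-colour array intensity signals per probe set on a linear scale, which the authors obtained, per the submitters' processing notes, in Expression Console 1.4.1 of Affymetrix; how probes were summarised is not given in the sources. Of 10928 probe sets, 7244 name 1 gene. Signals were taken to log2 and centred on the median of S. cerevisiae genes of each array. Genes among the lowest 25% were left out, and 4086 S. cerevisiae and 1305 S. pombe genes were tested. WT total arrays 1 and 2 equal means of 2 other WT arrays each and were left out. The test was limma 3.58.1 (lmFit and eBayes, R 4.3.3) over 32 total RNA arrays with strain as factor, with Benjamini-Hochberg adjustment over all genes tested and a threshold of 0.05. The spike ratio was tested by exact permutation (scipy 1.17.1). Depth does not apply to arrays, and their number limits the precision.

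The members and gene lists were chosen with earlier results of these data known. Named are the deleted genes and their neighbours, the 12 genes with the largest difference each way whose arrays do not overlap, up to 3 each way on shared probe sets, and up to 4 members of each list with the lowest p. Other list members complete a count or were chosen after their values were seen. On simulated data 52.2%, 92.5% and 100% of genes with log2 changes of 0.5, 1 and 2 were recovered, and 13 of 176 calls were false. The simulated arrays were independent of each other, which the arrays of a strain may not be, so these rates may be too favourable. Alternatives were other filters, scalings, sets of arrays, a replicate block, averaged arrays and arrays left out. A search of promoters for motifs was not run.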

Additional observations from a re-analysis of the deposited data

Results flagged for a closer look

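For 18 of 471 tested groups of arrays (3.82%), 1 array stood apart from the rest of its group by Dixon's test, where chance gives about 1 in 20. WT replicate 4 was low for AHA1 (1.32, others 2.04 to 2.45), CPR6 (2.53, others 3.16 to 3.35), HHO1 (1.16, others 1.51 to 1.67), PRY3 (-1.61, others -0.85 to -0.68) and SCW11 (-0.40, others 0.31 to 0.63), and high for DBP10 (2.41, others 1.75 to 2.00). Among the spt7 arrays, replicate 1 was low for GCV3 (2.95, others 3.10 to 3.12), RPN6 (1.76, others 1.84 to 1.85) and YOR072W-B (0.22, others 0.38 to 0.39), and replicate 2 was low for GCN5 (-0.66, others -0.44 to -0.42). Replicate 3 was high for RPL4B (2.58, others 2.37 to 2.39) and SPT3 (0.11, others -0.05 to -0.03), and replicate 4 was high in the median signal of S. cerevisiae over S. pombe (0.716, others 0.566 to 0.590). Among the ubp8_gcn5 arrays, replicate 4 was low for FSH2 (-0.93, others -0.62 to -0.57) and VTC3 (-0.52, others -0.38 to -0.36) and high for YDR316W-B (2.85, others 2.36 to 2.44). Replicate 2 was low for SEC18 (0.41, others 0.65 to 0.69) and high for SST2 (-1.46, others -2.15 to -2.05).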

How the results depend on the processing

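The count of 964 genes (467 higher, 497 lower) moved with the arrays in the fit, the scaling, the averaging of arrays and the replicate block. It was 2360 (1141, 1219) with the 8 arrays alone, 2037 (969, 1068) without spt20 and the second batch, 149 (12, 137) with scaling to S. pombe and 589 (259, 330) with the lowest 50% left out. Averaging replicates 1 with 2 and 3 with 4 gave 447 (186, 261), 1 with 3 and 2 with 4 gave 140 (45, 95), and 1 with 4 and 2 with 3, added after seeing the data, gave 415 (167, 248). The same averages without spt20 and the second batch, also added then, gave 1959 (927, 1032), 1837 (875, 962) and 1789 (853, 936). The share of higher genes was 48.4%, and 57.4% with quantile normalization (684 higher, 507 lower) and 8.05% with scaling to S. pombe. Leaving out 1 array gave 779 to 819 genes (347 to 400 higher, 412 to 447 lower) and a spike ratio difference of -0.37 to -0.19. With the replicate number as a block, 2425 genes (1171, 1254) passed and the spike ratio difference was -0.261 (exact p = 0.25); same-numbered arrays had correlations of deviations of 0.00935 to 0.225, 2 of 4 correlated best with their own number, and the labels do not pair them. Against WT, scaling to S. pombe gave 1136 genes in spt7 and 282 in ubp8_gcn5.

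Median differences of the genes from other strains moved as follows. With 25 genes they were -0.78 for genes lower in spt3, -1.17 for higher in gcn5, -0.11 (reversed) for lower in ubp8, -1.06 for higher in ubp8, and -1.84 and 0.56 for lower and higher in the nascent contrast. With WT of the same batch they were -0.32 and -0.19 for lower and higher in spt8, -0.59 for higher in gcn5, and 0.034 and -0.59 for lower and higher in ubp8. With quantile normalization they were -1.19 and 0.15 for lower and higher in spt3, -0.0045 and 0.027 (reversed) for lower and higher in spt8, and 0.51 for higher in the nascent contrast. With scaling to S. pombe the uncalled differences of CAN1 (-0.015), DUN1 (-3.7e-05), LEU2 (-0.016) and PHO86 (-0.060) turned sign. List medians turned sign without the filter for phosphate (-0.067), DNA damage (-0.17) and mating type alpha genes (-0.28), and with quantile normalization for arginine (0.095), glycolysis (0.0072), cytosolic (0.082) and mitochondrial ribosomal protein genes (0.064). The cause of these shifts was not tested. Signals near background limit the size of differences of weak genes.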

Other observations

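The 4 spt7 arrays of total RNA fell into pairs that the labels do not name. Deviations from the group mean correlated at 0.22 between replicates 1 and 4 and at 0.12 between replicates 2 and 3, over all genes tested, and negatively for every other pair of spt7 arrays. In ubp8_gcn5 all pairs were negative. Deviations from a group's own mean cancel out over its arrays, which by itself pulls the pairs toward negative values. The negative values therefore cannot show that pairs are absent. The genes of oxidative stress show the pairs in single values, with SRX1 at 1.54 and 1.56 in spt7 replicates 1 and 4 and at 2.58 and 2.63 in replicates 2 and 3.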
